A study of Homo sapiens with 12 samples.

Results

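The chromosome 20p12 to 20q11.21 block is a set of 46 named genes that neighbour each other on human chromosome 20, from CDS2 on the short arm, across the centromere, to MAPRE1 on the long arm. The list was drawn up because a long run of genes here read lower in U937 cells carrying an EVI1 vector than in cells carrying the empty vector, so the members were chosen by those differences, which are given below as a description with no test. Of the 46 genes, 44 had a probe set that the platform annotation pairs with 1 gene, among 19775 such genes in all and 588 on chromosome 20. KAT14 was represented only by probe sets shared with PET117, and CRNKL1 had no probe set of its own in the annotation. On the log2 scale of the deposited values, 42 of the 44 had a mean over the 12 arrays at or above 5.07, the lowest array median, which served as the level below which a gene was called dim. PLCB4, at 3.64, and BTBD3, at 3.35, were the dim ones.

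U937 is a human myeloid cell line with monocyte-like features. The parent line was transduced with an EVI1 expression vector (U937_EVI1) or an empty vector (U937_vec), and growing cells received 50 ng/ml of the phorbol ester TPA, which drives such cells towards a macrophage-like state, or the same amount of its solvent ethanol (EtOH), for 24 h. The 4 groups were therefore U937_vec in EtOH, U937_EVI1 in EtOH, U937_vec in TPA and U937_EVI1 in TPA, with 3 biological replicates each, measured on 12 Affymetrix U133 Plus 2.0 arrays from 250 ng of total RNA. The labels name neither the promoter that drives EVI1 in the vector nor whether a population is 1 clone or a pool. If the replicates are cultures of 1 transduction, the p-values measure only the spread between cultures. A trait of either transduced population then cannot be told apart from an effect of the EVI1 vector.

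The genes of the block share a location and not a pathway. Among them are JAG1, a ligand of Notch receptors, and POFUT1, which fucosylates Notch; SNRPB2, a protein of the U2 splicing particle; POLR3F, a subunit of RNA polymerase III; XRN2, a nuclear exonuclease, and NXT1, an mRNA export cofactor; SEC23B, a COPII coat protein of secretory vesicles; the cystatins CST3 and CST7, which inhibit cysteine proteases; and ASXL1, a polycomb-linked chromatin regulator that is often mutated in myeloid malignancies. EVI1, the product of the MECOM locus, is a zinc finger protein that binds DNA at GATA-like motifs.

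Promoter sequences are shown for 4 members on which the results turn. JAG1 had the one TPA response that was called different between the populations. SNRPB2 and NANP lay inside the lower stretch and carried a searched motif, and PDRG1 was the first listed gene whose values lay near 0 past HM13. The sequences are the 250 bases before each gene's start in RefSeq on GRCh38.p14, 5′ to 3′ on the gene's own strand: JAG1 at chr20:10674000-10674249 on the minus strand, SNRPB2 at chr20:16729776-16730025 on the plus strand, NANP at chr20:25624015-25624264 on the minus strand and PDRG1 at chr20:31952047-31952296 on the minus strand. Capitals mark the AP-1 motif TGANTCA in SNRPB2 and a match to the GATA factors' motif, GATAAG, in NANP.
JAG1: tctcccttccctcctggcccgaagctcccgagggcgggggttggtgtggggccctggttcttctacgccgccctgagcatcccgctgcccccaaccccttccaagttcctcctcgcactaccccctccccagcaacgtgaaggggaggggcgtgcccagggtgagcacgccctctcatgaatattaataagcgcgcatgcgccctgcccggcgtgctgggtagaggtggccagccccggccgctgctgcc
SNRPB2: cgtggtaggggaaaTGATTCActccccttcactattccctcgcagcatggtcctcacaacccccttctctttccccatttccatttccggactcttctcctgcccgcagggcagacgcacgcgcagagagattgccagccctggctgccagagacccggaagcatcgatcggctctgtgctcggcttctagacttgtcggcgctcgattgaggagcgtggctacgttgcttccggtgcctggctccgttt
NANP: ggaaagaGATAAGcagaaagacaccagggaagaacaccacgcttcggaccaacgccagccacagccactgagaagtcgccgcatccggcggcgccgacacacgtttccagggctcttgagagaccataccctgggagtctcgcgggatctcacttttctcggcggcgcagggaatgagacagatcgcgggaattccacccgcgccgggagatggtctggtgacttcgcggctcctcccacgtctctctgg
PDRG1: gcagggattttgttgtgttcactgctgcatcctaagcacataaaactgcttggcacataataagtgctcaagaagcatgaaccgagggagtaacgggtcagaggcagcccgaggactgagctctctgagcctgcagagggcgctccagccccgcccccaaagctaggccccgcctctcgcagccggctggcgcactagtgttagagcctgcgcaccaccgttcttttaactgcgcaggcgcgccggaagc

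TGANTCA, the motif of the AP-1 factors that TPA activates, was searched on both strands of these 250-base windows. It was found in 5.03% of the 15382 promoters of measured genes with a RefSeq entry, and in 2 of 40 members with an entry, SNRPB2 and MAPRE1. GATAAG was found in 4.56% of all promoters and in 1 of 40 members, NANP. GAAGATGAG, a motif of the second zinc finger domain of EVI1, was found in 0.221% of all promoters and in 0 of 40 members, and a longer GATA repeat that contains GATAAG in 0.0195% and in 0 of 40. The member promoters had a median GC content of 65.2%, against 62.4% for all.

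Before the results, the arrays were checked against their labels. Within a group the arrays correlated at 0.9929 to 0.9978. All 8 measured myeloid markers were at or above 5.07 in every group, other than ITGAM at 4.59 in U937_EVI1 in EtOH. That level also let through some markers of other cell types: both measured erythroid markers and 2 of 3 megakaryocyte markers in every group, 2 of 3 B cell markers in 3 of the 4 groups, 2 of 5 epithelial and fibroblast markers and 1 of 4 T cell markers, so the check separates cell types only in part. The 5 MECOM probe sets read between 2.59 and 3.32 on every array and none was called different between the populations, so the arrays do not show the transgene's RNA. The gap between the 3′ and 5′ probe sets of ACTB, a sign of RNA quality, was 1.58 ± 0.38 in U937_EVI1 and 1.57 ± 0.28 in U937_vec (SD, n = 6 arrays each, log2). It was smaller in TPA in both populations, at 1.36 ± 0.25 against 1.78 ± 0.07 in U937_vec and 1.25 ± 0.03 against 1.91 ± 0.16 in U937_EVI1 (SD, n = 3).

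Members read lower in U937_EVI1 in both treatments. On each array, every member was set against its mean in U937_vec of the same treatment, and the median over the 44 members was taken. In EtOH that median was -0.56, -0.56 and -0.46 on the 3 U937_EVI1 arrays and between -0.03 and 0.02 on the U937_vec arrays. In TPA it was -0.62, -0.63 and -0.53 on the U937_EVI1 arrays and between -0.03 and 0.04 on the U937_vec arrays. The EVI1 arrays thus lay apart from the vec arrays in each treatment and close to each other, with SDs of 0.05 in both. Over the 12672 genes at or above 5.07 the same medians stayed between -0.01 and 0.03 on all 12 arrays. That range is largely built in, since the processing gave all arrays one distribution. The narrow range of the U937_vec arrays is partly built in too, since they were set against their own mean. In a bulk RNA sample, fewer cells making a transcript and less transcript per cell cannot be told apart.

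**Figure D1:**
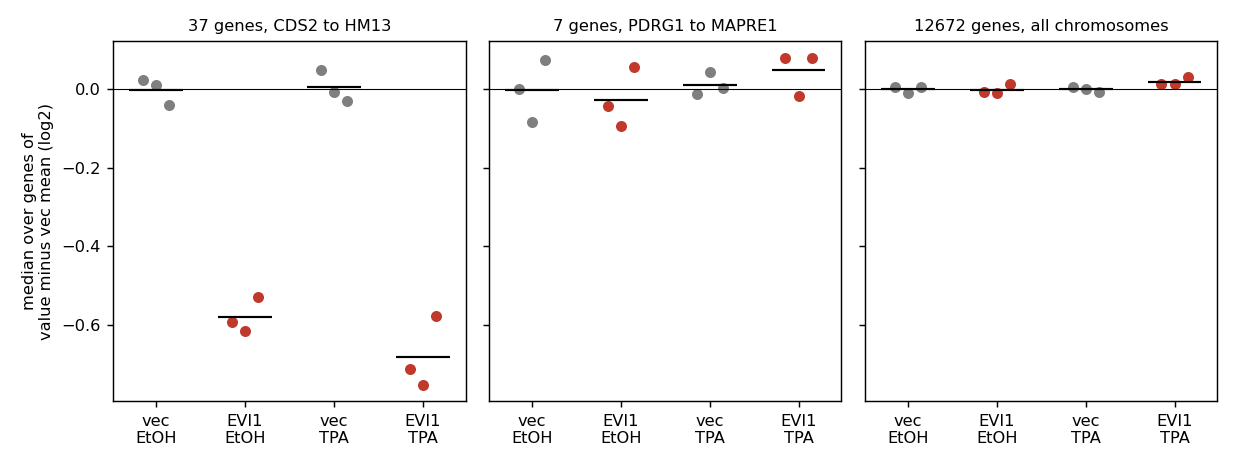
Median over genes of each array's value minus the U937_vec mean of its treatment (log2, y axis) by group (x axis), for the 37 measured members from CDS2 to HM13, the 7 from PDRG1 to MAPRE1 and 12672 genes at or above 5.07. Points are arrays and bars are group means; the U937_EVI1 arrays (red) lie low only in the left panel of these 3.

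The fitted difference, U937_EVI1 minus U937_vec, had a median of -0.52 over the 44 members in EtOH and -0.58 in TPA, which is 69.7% and 66.7% of the U937_vec level, while the medians over all genes were 0.01 and 0.01. Single members ran from -1.23 to 0.21 in EtOH and from -1.42 to 0.54 in TPA. With limma and Benjamini-Hochberg adjustment over all genes at 0.05, 24 members were called lower in EtOH, where 1.95% of all genes were, and 31 in TPA, where 5.3% of all genes were. No member was called higher in EtOH (1.32% of all genes) and 1 was in TPA (5.9%). All 3 U937_EVI1 arrays lay below all 3 U937_vec arrays for 33 members in EtOH and 34 in TPA, against 11.4% and 10.5% of all genes. The rule used these contrasts, so the counts describe the choice.

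The block was not uniform along its length, as the plot of members in gene order shows. The cuts used here, at ESF1, HM13 and PDRG1, were set by hand and not by the fit given below, so the medians describe these cuts. From CDS2 to BTBD3, the most distal 8 members, the median difference was -0.23 in EtOH and -0.44 in TPA. Both dim members of the block, PLCB4 and BTBD3, are among these 8. They differed by 0.03 and 0.05 in EtOH and by -0.20 and -0.16 in TPA, which made these medians smaller in size. From ESF1 to HM13, 29 members, the median difference was -0.67 and -0.70, or 62.7% and 61.6% of the U937_vec level. All U937_EVI1 arrays lay below all U937_vec arrays for 28 and 27 of these members, against 11.4% and 10.5% of all genes. From PDRG1 to MAPRE1, the last 7 members, the median difference was -0.03 and -0.00. HM13 had the lowest difference of all 44 members in both treatments and PDRG1, the next listed gene, lay at 0 within its error.

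**Figure D2:**
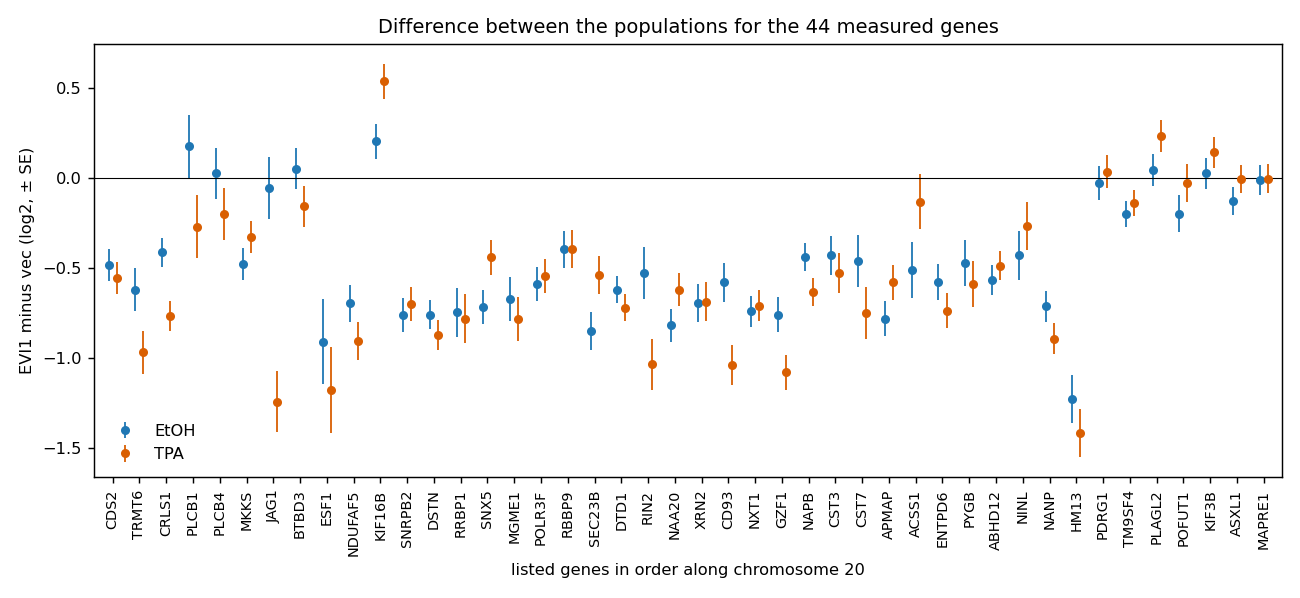
U937_EVI1 minus U937_vec (log2, y axis, ± SE of the fit) for the 44 measured members in their order along chromosome 20 (x axis), in EtOH (blue) and TPA (orange), 3 arrays per group. Most members from ESF1 to HM13 lie between -0.4 and -1.2, and the 7 from PDRG1 to MAPRE1 lie near 0.

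HM13, which encodes the signal peptide peptidase of the endoplasmic reticulum, read 10.29, 10.47 and 10.21 on the U937_vec arrays in EtOH and 9.19, 9.12 and 8.97 on the U937_EVI1 arrays. In TPA it read 11.68, 12.09 and 11.77 against 10.28, 10.30 and 10.70. Both treatments showed U937_EVI1 low with no overlap, at -1.23 ± 0.13 and -1.42 ± 0.13 (± SE). The size depends on the probe set: with the mean of all 5 HM13 probe sets the difference averaged over treatments was -0.81 in place of -1.32.

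PDRG1, named as a gene regulated by p53 and DNA damage, read 9.39, 9.29 and 9.56 in U937_vec and 9.37, 9.32 and 9.47 in U937_EVI1 in EtOH, and 8.85, 8.65 and 8.84 against 8.86, 8.73 and 8.86 in TPA. The values of the populations ran through each other in both treatments. Other members past HM13 also lay near 0. MAPRE1, the microtubule end protein EB1, differed by -0.01 ± 0.08 and -0.00 ± 0.08, ASXL1 by -0.13 ± 0.08 and -0.00 ± 0.08, KIF3B, a kinesin motor, by 0.03 ± 0.08 and 0.14 ± 0.08, and the zinc finger factor PLAGL2 by 0.05 ± 0.09 and 0.23 ± 0.09. POFUT1 differed by -0.20 ± 0.10 and -0.03 ± 0.10. TM9SF4, a membrane protein of the endosomal system, was the exception of these 7, with all U937_EVI1 arrays below all U937_vec arrays in both treatments, at -0.20 ± 0.07 and -0.14 ± 0.07, though it was not called.

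Of the members of RNA processing and transcription, SNRPB2 read 11.50, 11.62 and 11.45 in U937_vec and 10.68, 10.87 and 10.74 in U937_EVI1 in EtOH. In TPA it read 11.35, 11.22 and 11.11 against 10.54, 10.39 and 10.65. U937_EVI1 was low by a like amount in both treatments, -0.76 ± 0.10 and -0.70 ± 0.10. XRN2 differed by -0.69 ± 0.11 in each treatment, NXT1 by -0.74 ± 0.09 and -0.71 ± 0.09 and POLR3F by -0.59 ± 0.09 and -0.54 ± 0.09. DTD1, which clears D-amino acids from tRNA, differed by -0.62 ± 0.08 and -0.72 ± 0.08. ESF1, a nucleolar factor of ribosomal RNA processing, had the second lowest EtOH difference, -0.91 ± 0.24, but also the widest error of the block, and differed by -1.18 ± 0.24 in TPA. TRMT6, a subunit of the tRNA adenosine methyltransferase, differed by -0.62 ± 0.12 and -0.97 ± 0.12. Leaving out 1 array moved the TPA difference of ESF1 between -1.46 and -0.80. Of these 7 members, 6 were called lower in EtOH and 7 in TPA, against 1.95% and 5.3% of all genes, and the members were chosen for low values.

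All 7 members of membrane traffic were low as well, TM9SF4 by the least. SEC23B differed by -0.85 ± 0.11 in EtOH and -0.54 ± 0.11 in TPA, and SNX5, a sorting nexin of the endosome, by -0.72 ± 0.10 and -0.44 ± 0.10, and neither was called in the difference in response to TPA. RRBP1, a ribosome-binding protein of the endoplasmic reticulum, differed by -0.75 ± 0.14 and -0.78 ± 0.14, and NAPB, a SNAP protein that helps take SNARE complexes apart, by -0.44 ± 0.08 and -0.63 ± 0.08. With the mean of its 7 probe sets, RRBP1 differed by -0.29 averaged over treatments, against -0.76 for its brightest probe set. Among mitochondrial genes, NDUFAF5, a complex I assembly factor, differed by -0.70 ± 0.10 and -0.91 ± 0.10, and MGME1, an exonuclease of mitochondrial DNA, by -0.67 ± 0.12 and -0.78 ± 0.12.

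Of the surface and cystatin genes, CD93, a glycoprotein of myeloid and endothelial cells, read 11.62, 11.57 and 11.50 in U937_vec and 11.01, 10.85 and 11.09 in U937_EVI1 in EtOH. In TPA it read 12.81, 12.80 and 12.80 against 11.95, 11.49 and 11.85. The 3 U937_vec arrays in TPA were nearly equal and all U937_EVI1 arrays lay below them. The differences were -0.58 ± 0.11 and -1.04 ± 0.11. CST3, cystatin C, differed by -0.43 ± 0.11 and -0.53 ± 0.11, CST7, cystatin F, by -0.46 ± 0.15 and -0.75 ± 0.15, and APMAP, a membrane protein first described in adipocytes, by -0.78 ± 0.10 and -0.58 ± 0.10.

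The remaining members between ESF1 and HM13 were all lower too, with 1 exception described next. DSTN, the actin depolymerising factor destrin, read 10.95, 11.02 and 10.80 in U937_vec and 10.15, 10.18 and 10.16 in U937_EVI1 in EtOH. It read 11.41, 11.40 and 11.23 against 10.48, 10.50 and 10.44 in TPA, and the U937_EVI1 arrays lay within 0.06 of each other in each treatment. NAA20, the catalytic subunit of the N-terminal acetyltransferase NatB, differed by -0.82 ± 0.09 and -0.62 ± 0.09, GZF1, a zinc finger factor, by -0.76 ± 0.10 and -1.08 ± 0.10, and NANP, a phosphatase of sialic acid synthesis, by -0.71 ± 0.09 and -0.89 ± 0.09. ENTPD6, a nucleotide hydrolase, ABHD12, a lysophospholipid lipase, PYGB, a glycogen phosphorylase, RBBP9, a serine hydrolase, NINL, a centrosomal protein, and ACSS1, a mitochondrial acetyl-CoA synthetase, differed by between -0.58 and -0.40 in EtOH. In TPA they ran from -0.74 for ENTPD6 to -0.13 for ACSS1, whose arrays then overlapped. Leaving out 1 array moved ACSS1 in TPA between -0.25 and 0.08, and NINL in EtOH between -0.53 and -0.25.

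KIF16B, an endosomal kinesin, went the other way. It read 5.83, 5.41 and 5.64 in U937_vec and 5.81, 5.80 and 5.89 in U937_EVI1 in EtOH, where the populations overlapped. In TPA it read 6.20, 6.21 and 6.24 against 6.82, 6.78 and 6.67, and all U937_EVI1 arrays were higher, by 0.54 ± 0.10. Its other probe set, with a mean of 5.58, differed by -0.17 and 0.07, so the 2 probe sets disagreed in EtOH. KIF16B lies between NDUFAF5 and SNRPB2, which were both low.

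Toward the distal end, members varied more. CDS2, which makes CDP-diacylglycerol for phosphoinositide synthesis, differed by -0.48 ± 0.09 and -0.56 ± 0.09, CRLS1, cardiolipin synthase, by -0.41 ± 0.08 and -0.77 ± 0.08, and MKKS, a chaperonin-like protein linked to cilia, by -0.48 ± 0.09 and -0.33 ± 0.09. PLCB1, a phospholipase C that acts downstream of Gq, read 8.41, 8.47 and 8.66 in U937_vec and 8.78, 8.71 and 8.58 in U937_EVI1 in EtOH, and the arrays overlapped there and in TPA, with differences of 0.18 ± 0.17 and -0.27 ± 0.17. JAG1, which lies next to MKKS among the members, did not differ beyond its error in EtOH, at -0.05 ± 0.17, and differed by -1.24 ± 0.17 in TPA.

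The start and end of the shift were sought by fitting 3 stretches of constant level to the difference averaged over treatments, over the 388 chromosome 20 genes at or above 5.07, in gene order, by least absolute deviation, with at least 10 genes each. The middle stretch ran from CDS2, gene 85 of 588 measured, to ZNF337, gene 207, with 63 genes and a median of -0.53. The stretch after it, from FRG1BP at gene 212 to the end of the long arm, had a median of 0.01 over 266 genes. The stretch before it, from ZCCHC3 at gene 7 to PCNA at gene 84, had a median of -0.30 over 59 genes. Within it the running median over 15 genes ran from -0.41 to -0.04 in EtOH and from -0.41 to 0.02 in TPA, so parts of it lay near 0. Its brighter genes were mostly low. Of the 41 genes before CDS2 at or above 6.12, the median of all genes, 36 were below 0 in each treatment. Past MAPRE1, 87 of 176 such genes were below 0 in EtOH and 73 in TPA. From CDS2 to ZNF337 the running median ran from -0.70 to -0.41 in EtOH and from -0.71 to -0.13 in TPA. Lower values thus did not begin at CDS2, and no sharp step marked their start.

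**Figure D3:**
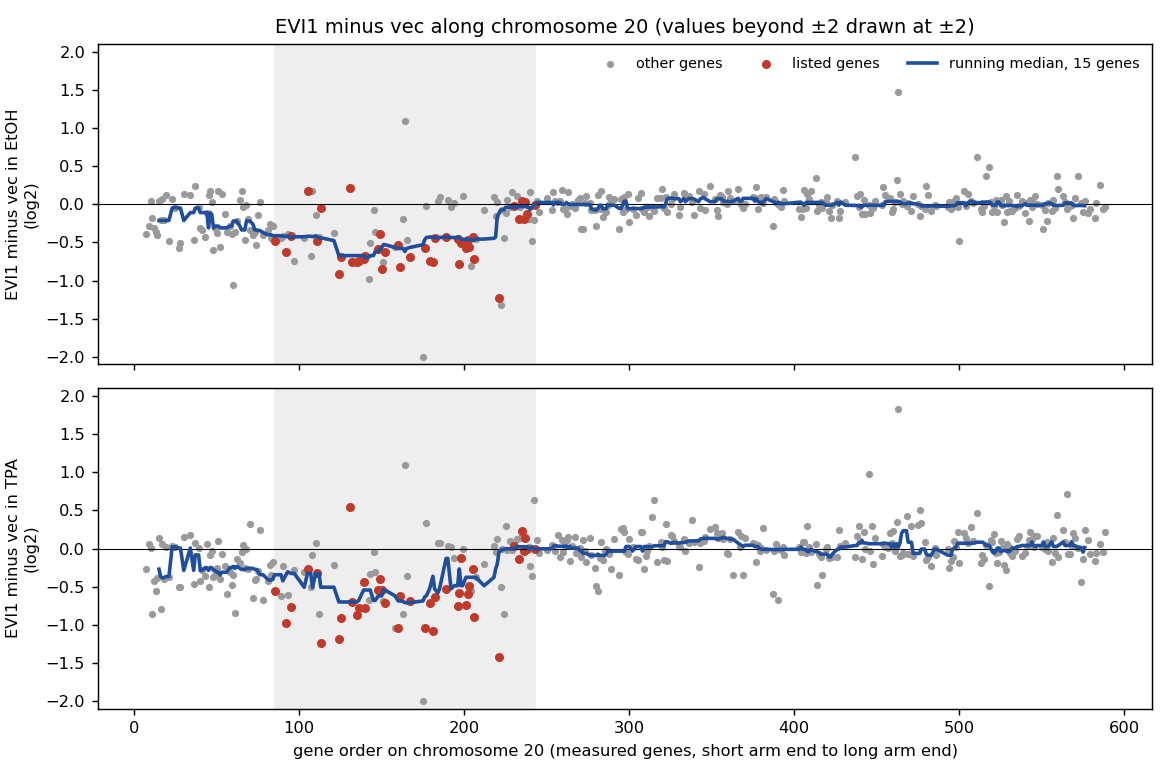
U937_EVI1 minus U937_vec (log2, y axis) for 388 chromosome 20 genes at or above 5.07 in gene order (x axis), in EtOH (top) and TPA (bottom), with members in red, other genes in grey and a running median over 15 genes in blue; the grey band spans CDS2 to MAPRE1. The running median lies at or below about 0 before the band, is lowest inside it and returns to about 0 before its end.

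The end was steadier than the start. ZNF337 was the last gene of the middle stretch in EtOH alone, in TPA alone, without any 1 array and under every other setting tried except least squares, which put it at BCL2L1, gene 224. The start moved to SLX4IP, gene 112, in TPA alone, without replicate 3 of U937_EVI1 in TPA, without replicate 1 of U937_vec in TPA, and with only genes at or above 6.12, the median of all genes. It moved to MKKS, gene 111, with the mean of all probe sets of a gene, and to CST7, gene 196, when dim genes were kept. It moved the other way to PRNP, gene 78, by least squares and to AP5S1, gene 72, when the outer stretches shared 1 level. With 2 stretches in place of 3, a single lower stretch ran from ZCCHC3 to ZNF337 at -0.39, and the stretch after it was again at 0.01.

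Single genes at the end were mixed. ZNF337 differed by -0.46 ± 0.12 in EtOH and -0.38 ± 0.12 in TPA, and FRG1BP, the next gene above 5.07, by -0.07 ± 0.15 and -0.20 ± 0.15. Past it, HM13, ID1, an inhibitor of helix-loop-helix factors, at -1.33 ± 0.12 and -0.50 ± 0.12, and BCL2L1, which encodes the survival protein BCL-XL, at -0.45 ± 0.08 and -0.86 ± 0.08, were still low. TPX2, a spindle protein and the gene after BCL2L1, differed by -0.12 ± 0.28 and 0.30 ± 0.28. Low values as large as in the block thus went on in some genes up to BCL2L1, before PDRG1. Past PDRG1, COMMD7, a gene singled out after its values were seen, differed by -0.48 and -0.35.

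Just before CDS2, the neighbours above 5.07 were low to a smaller degree. RASSF2, a RAS association protein, differed by -0.34 ± 0.12 and -0.42 ± 0.12, SLC23A2, an ascorbate transporter, by -0.26 ± 0.08 and -0.21 ± 0.08, TMEM230 by -0.44 ± 0.07 and -0.34 ± 0.07, and PCNA, the replication clamp, by -0.28 ± 0.15 and -0.17 ± 0.15. The dim neighbours PRND and PRNT lay within 0.12 of 0. Past MAPRE1, the 6 next genes, SUN5 and 5 members of the BPIF family, differed by between -0.16 and 0.23, and 4 of them were dim.

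The size of the difference varied with the level of the genes. Among the 84 measured genes before CDS2, the 59 at or above 5.07 had medians of -0.28 in EtOH and -0.27 in TPA, the 41 at or above 6.12 had -0.34 and -0.37, and the 25 dim ones had -0.03 and 0.05. Of the 115 genes between CDS2 and MAPRE1 that are no members, the 69 dim ones had medians of 0.03 and 0.01 and the 32 at or above 6.12 had -0.41 and -0.29. The 241 genes past MAPRE1 at or above 5.07 had medians of 0.01 and 0.02. Over the 37 members from CDS2 to HM13, the mean level and the averaged difference had a Pearson correlation of -0.60 and a Spearman correlation of -0.54, across genes measured on the same arrays. RMA values of dim genes are compressed, so their differences may understate a change. Whether the dim genes are expressed at all was not tested.

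Neighbours that are no members included larger differences in both directions. THBD, thrombomodulin, had a U937_EVI1 mean below 5.07 in both treatments, 3.83 in EtOH and 4.87 in TPA. In EtOH all 3 U937_EVI1 arrays were below 5.07, and set against that level THBD was at least 1.93-fold lower than the U937_vec mean of 6.02. In TPA THBD read 5.11, 3.83 and 5.66 in U937_EVI1, with 1 array below 5.07, against a U937_vec mean of 9.38. The difference in TPA was -4.51 ± 0.33. PET117, a mitochondrial assembly factor whose probe sets KAT14 partly shares, differed by -0.98 ± 0.10 and -0.68 ± 0.10, SMIM26 by -0.76 ± 0.10 and -0.69 ± 0.10 and the exchanger SLC24A3 by -0.57 ± 0.13 and -1.04 ± 0.13. RALGAPA2, a subunit of a GTPase activator of Ral that lies just past NAA20, was instead higher, by 1.10 ± 0.12 in both treatments. DNMT3B, near MAPRE1, differed by -0.21 ± 0.17 and 0.63 ± 0.17.

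Other probe sets of the members read the same sign in most cases. They read the same genes on the same arrays that chose the members, so their signs also describe the choice. Of 44 further single-gene probe sets at or above 5.07, from 25 members, 36 were lower in U937_EVI1 in both treatments, with medians of -0.47 and -0.56. Singly, 39 of the 44 were lower in EtOH and 38 in TPA, where 6335 and 5747 of the 12672 genes at or above 5.07 were. From CDS2 to HM13 it was 30 of 35 probe sets, with medians of -0.52 and -0.67, and from PDRG1 to MAPRE1 6 of 9, with medians of -0.13 and -0.13. Of the 35 members with several probe sets, 13 moved by over 1.5 times or changed sign when their mean was used. Of the 11 of these that differed by at least 0.3, 10 came closer to 0. On a scale of whole chromosomes, a running median of the difference averaged over treatments was taken over 21 genes at or above 5.07. Its lowest value was -0.72 on chromosome 20 and lower only on chromosome 8, at -0.92. The next lowest were chromosomes 5, 11 and 15, all at -0.30. In the other direction, its highest value was 0.69 on chromosome 7, followed by 0.32 on chromosome 19.

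The TPA response, averaged over the populations, is a comparison the choice of members did not use. By limma with adjustment over all genes, 35 of 44 members changed, 16 higher and 19 lower. Of all genes 48% changed, 23.6% higher and 24.4% lower, and of genes at or above 5.07 66.9% did (31.6% higher and 35.2% lower), beside 35 of the 42 members at or above that level. The median response was -0.07 over the members and 0.01 over all genes. In U937_vec alone 31 members changed, 14 higher and 17 lower, where 20.7% and 22.5% of all genes were, or 43.2% together, and in U937_EVI1 31 changed, 13 higher and 18 lower, where 19.4% and 20.6% were, or 40% together. These comparisons share arrays with the differences between the populations. The ACTB gap given above was also smaller in TPA, and its part in these responses was not tested.

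RIN2, an exchange factor for the endosomal GTPase RAB5, rose most. It read 5.02, 4.96 and 5.41 in U937_vec in EtOH and 12.19, 12.15 and 11.98 in TPA. In U937_EVI1 it read 4.56, 4.36 and 4.88 in EtOH and 11.11, 10.90 and 11.20 in TPA. All 3 U937_EVI1 arrays and 2 of 3 U937_vec arrays in EtOH were below 5.07, and all TPA arrays were far above it. RIN2 was called in the averaged response, with a limma adjusted p of 9.5e-15. Set against 5.07, the rise in U937_EVI1 was at least 64-fold. In TPA U937_EVI1 differed from U937_vec by -1.04 ± 0.14, and the EtOH difference, between values at the dim level, was not called. HM13 rose by 1.43 ± 0.09, NAA20 by 1.13 ± 0.06, CD93 by 1.01 ± 0.08, KIF16B by 0.76 ± 0.07, CDS2 by 0.69 ± 0.06, CST3 by 0.68 ± 0.08 and APMAP by 0.52 ± 0.07.

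**Figure D4:**
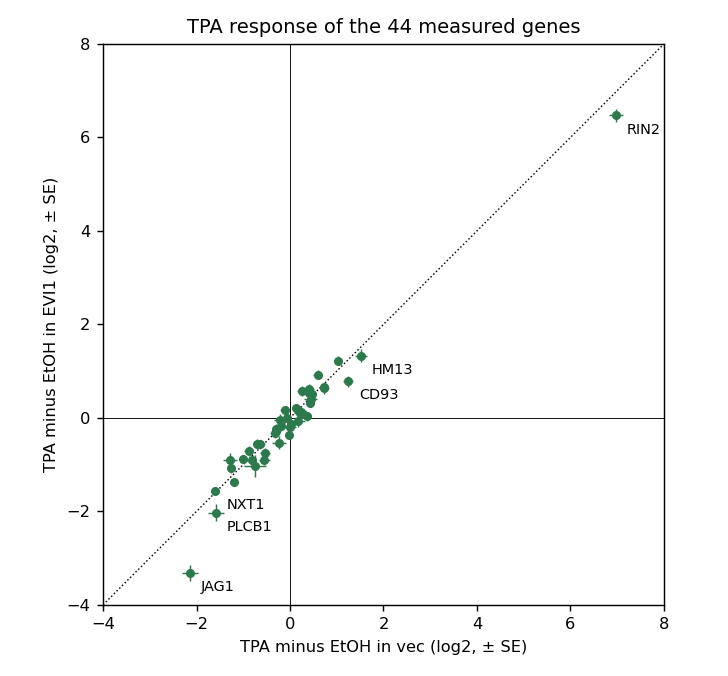
TPA minus EtOH in U937_EVI1 (log2, y axis) against the same in U937_vec (x axis) for the 44 measured members, ± SE of the fit, with equality as a dotted line. RIN2, at the dim level in EtOH, lies at the upper right, most members lie along the dotted line, and JAG1 lies below it at -2.14 and -3.33.

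The counts by role stand beside 66.9% of genes at or above 5.07 changed, 31.6% higher and 35.2% lower, and in groups this small they are descriptions only. Of the 7 members of membrane traffic, 5 rose and 0 fell: RIN2, HM13, RRBP1, SEC23B and NAPB rose. Of the 4 surface and cystatin genes, CD93, CST3 and APMAP rose and CST7 fell by 0.38 ± 0.10. Of the 7 members of RNA processing, tRNA and transcription, 5 fell and POLR3F rose, by 0.48 ± 0.07. NXT1 read 9.75, 9.73 and 9.68 in EtOH and 8.17, 8.09 and 8.11 in TPA in U937_vec, and 8.94, 8.92 and 9.08 against 7.36, 7.30 and 7.58 in U937_EVI1. It fell by 1.58 ± 0.06, and by nearly the same amount in each population. DTD1 fell by 0.85 ± 0.05, TRMT6 fell by 0.72 ± 0.08 and ESF1 fell by 0.89 ± 0.17, and XRN2, at -0.18 ± 0.08, did not pass.

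Of the Notch-linked members, JAG1 fell by 2.73 ± 0.12 and POFUT1 fell by 0.80 ± 0.07. PLCB1 fell by 1.80 ± 0.12, NANP fell by 1.28 ± 0.06 and PLAGL2 fell by 1.18 ± 0.06. ACSS1 fell by 1.09 ± 0.11 and ASXL1 fell by 0.94 ± 0.06. Lipid and phosphoinositide enzymes were split, with 2 higher and 2 lower of 5, and so were cytoskeletal genes, with 3 higher and 2 lower of 6. Of the 7 members from PDRG1 to MAPRE1, 5 fell and 1, KIF3B, rose, by 0.46 ± 0.06. The members' responses to TPA thus went in both directions along the block. Their differences between the populations were mostly of one sign up to HM13, but the members were chosen for low values in that comparison.

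A different response to TPA in the 2 populations was called for 1 of 44 members, JAG1, with the lower response in U937_EVI1. Of all genes 1.05% were called lower and 1.98% in either direction, so the count is near the background. The test shares arrays with the differences that chose the members. JAG1 read 8.58, 8.91 and 8.95 in U937_vec in EtOH and 6.95, 6.42 and 6.66 in TPA. In U937_EVI1 it read 8.70, 8.68 and 8.90 in EtOH and 5.74, 5.05 and 5.51 in TPA. The populations overlapped in EtOH and lay apart in TPA, with U937_EVI1 low. It fell by 2.14 on the log2 scale in U937_vec and fell by 3.33 in U937_EVI1, a difference of -1.19 ± 0.24 with a limma adjusted p of 0.0242. In U937_EVI1 in TPA 1 array lay below 5.07, so the fall there may be understated.

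The JAG1 call was lost in 5 of the 12 fits that left out 1 array: without replicate 1, 2 or 3 of U937_EVI1 in EtOH (adjusted p 0.0552, 0.0506 and 0.0723), without replicate 1 of U937_vec in EtOH (0.0726) and without replicate 1 of U937_vec in TPA (0.0556), with differences between -1.23 and -1.05. With the mean of its 6 probe sets it was -0.59, with an adjusted p of 0.114. Of its other probe sets, those with means of 7.41 and 6.07 differed by -1.19 and -0.95 in the same direction, one with a mean of 5.67 by -0.22, and the 2 dim ones by -0.02 and 0.03. The probe set of CD93 differed in response by -0.46, that of RIN2 by -0.51 and that of PLCB1 by -0.45, and none of these was called. The median difference in response over the members was -0.05, against 0.01 over all genes.

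**Figure D5:**
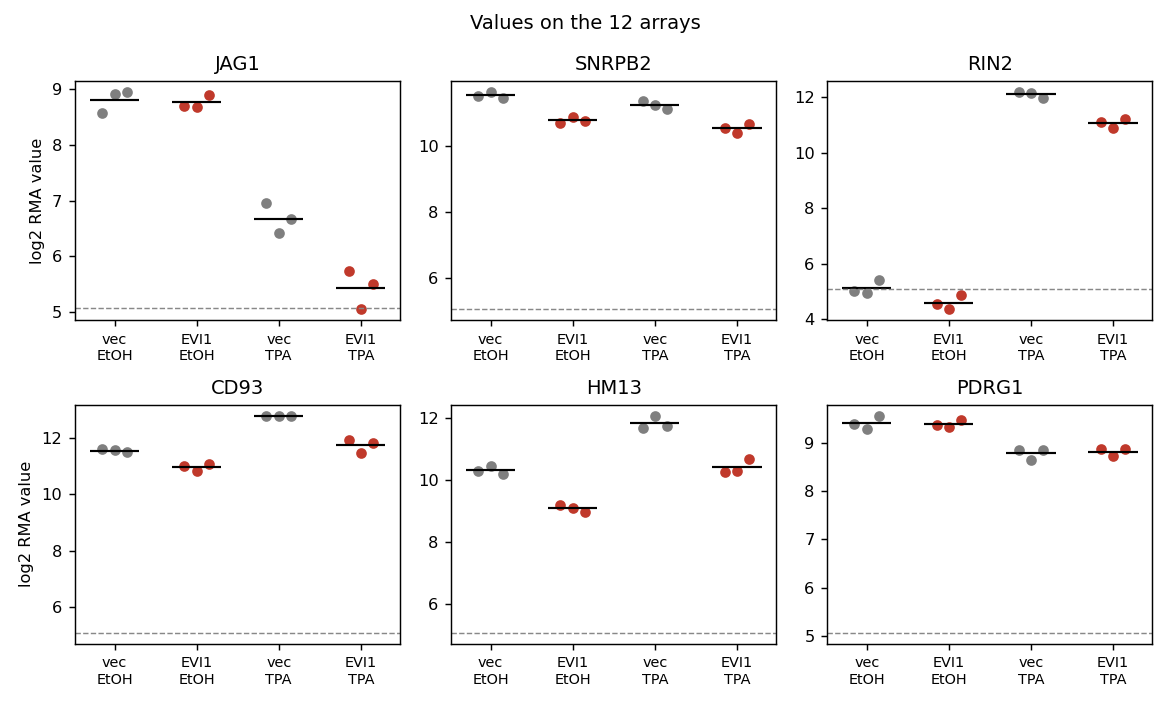
Log2 RMA value (y axis) of 6 members on the 12 arrays by group (x axis), with U937_vec in grey, U937_EVI1 in red, group means as bars and 5.07 as a dashed line. SNRPB2, CD93 and HM13 show U937_EVI1 low in both treatments, JAG1 only in TPA, and PDRG1 in neither. RIN2 shows it low in TPA, while in EtOH most of its arrays lie below the dashed line and its difference was not called.

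Genes elsewhere whose products work with the members were set beside them, from 12 lists with 157 genes. Of these 150 were measured, and the 3 on chromosome 20 were left out. The median difference between the populations over the 147 was -0.01 in EtOH and -0.01 in TPA. In EtOH 1 was called lower and 2 higher, or 3 of 147 where 3.27% of all genes were called, and in TPA 9 lower and 8 higher, or 17 of 147 where 11.2% were. The counts were 1 in EtOH without replicate 2 or 3 of U937_EVI1 or replicate 1 or 2 of U937_vec, and 9 and 10 in TPA without replicate 2 of U937_EVI1 or of U937_vec.

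In EtOH the called partners were CTSC, a cysteine cathepsin, lower with a difference of -0.37 ± 0.08, BUD31, a splicing factor, higher by 0.36 ± 0.08, and NXF3, an mRNA export factor, higher by 0.51 ± 0.09. In TPA the lower ones included PYGL, the liver glycogen phosphorylase related to PYGB, at -0.69 ± 0.11, GNA15, a Gq family subunit that activates phospholipase C beta, at -0.67 ± 0.13, and the cathepsins CTSB, at -0.66 ± 0.15, and CTSC, at -0.56 ± 0.08, which cystatins inhibit. Higher ones included POLR3K, an RNA polymerase III subunit, by 0.48 ± 0.09, and BUD31, by 0.46 ± 0.08. BUD31 lies on chromosome 7 and CTSB on chromosome 8. Without the partners on these chromosomes, 2 of 139 were called in EtOH and 15 in TPA. In EtOH 0 of the 11 COPII partners of SEC23B and 0 of the 21 Notch pathway genes were called, and in TPA 0 and 1, MAML1, counts that lists of this size give little room to read beside 3.27% and 11.2% of all genes.

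The partners' TPA responses were spread over both directions. Of the 17 splicing partners of SNRPB2, 12 fell and 1 rose, and of the 11 RNA polymerase III partners of POLR3F, 7 fell and 1 rose, whereas POLR3F itself rose. Of the 21 Notch pathway genes 11 rose and 4 fell, whereas JAG1 and POFUT1 fell. Of the 12 SNARE and retromer genes 10 rose and 1 fell, and of the 14 cystatins and cysteine cathepsins 6 rose and 1 fell. All 147 together had a median response of 0.06, with 63 higher and 44 lower, where 23.6% and 24.4% of all genes were. Most partners were not dim, so genes at or above 5.07 are the closer background. Of the 140 partners at that level 61 rose and 43 fell, beside 31.6% and 35.2% of all genes at that level. The counts by list stand beside the same shares and are descriptions only.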

How the data were processed

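The deposited files hold 1 log2 value per probe set and array. Per the submitters' processing notes, the authors used RMA in Affymetrix Expression Console 1.3. That method gives all arrays one distribution, which hides a change shared by most genes, and array medians lay between 5.07 and 5.11. The table has 54675 probe sets (62 controls), of which 41097 carry 1 gene in the platform annotation, 1801 several and 11777 none. Each gene took its single-gene probe set with the highest mean over 12 arrays. Gene order came from a RefSeq table, which lacked 59 genes.

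A model in limma 3.58.1 (R 4.3.3) fitted the 4 group means to all arrays together (8 residual and 5.22 prior degrees of freedom), and two-sided p-values were adjusted by Benjamini-Hochberg over all genes at 0.05. In simulated data the averaged TPA effect recovered 89%, 99% and 99% of changes of 0.5, 1 and 2 (log2), and the difference in response 37.5%, 89.5% and 99%. Errors are SEs of the fit unless SD is written, and the number of arrays limits the precision.

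Same-numbered replicates deviated together over genes at or above 5.07, with correlations of 0.287, 0.215 and 0.123 between the populations in EtOH, 0.535, 0.174 and 0.179 in TPA, and 0.119 to 0.306 between treatments within a population. Between groups that differ in both factors they were 0.212, 0.041 and -0.022, and 0.123, 0.027 and -0.011. Pairing by number was therefore accepted only within the 4 comparisons of 1 factor. This rests on the data, since no label ties a number to a batch. The main fit had no term for the replicate number, and the replicate block was run only as an alternative. Over all genes, correlations within these comparisons ran from 0.13 to 0.415 in TPA and from 0.075 to 0.208 in the other 3.

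The members, lists and the level of 5.07 were chosen with earlier results of these data known. Other genes were named by position (6 on each side, ends of the fitted stretches and their neighbours), as the 5 lowest and 5 highest between CDS2 and MAPRE1 at or above 5.07, or as up to 2 partners called each way per list. Alternatives were the mean of all probe sets, the handling of dim genes, array centring, an intensity trend, the replicate block, leaving out each array, and other fits of the stretches, of which those with 2 stretches and with genes at or above 6.12 were chosen after seeing the data.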

Additional observations from a re-analysis of the deposited data

Results flagged for a closer look

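JAG1 was singled out because its TPA response differed between the populations by a test of the difference itself. On the log2 scale it fell by 2.14 in TPA in U937_vec and fell by 3.33 in U937_EVI1, a difference of -1.19 ± 0.24 with a limma adjusted p of 0.0242 (between 0.0096 and 0.114 over the alternatives run). No other of the 44 measured members was called in that test.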

How the results depend on the processing

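Array number and dim probe sets limit these results: with 3 arrays per group a difference in response of 0.5 (log2) was recovered in 37.5% of simulated cases. With the mean of all probe sets of a gene, the member medians were -0.45 in EtOH and -0.49 in TPA, the shift began at gene 111, no member was called in the difference in response (0 of 44), and 1 partner was called in EtOH. The first gene was number 112 in TPA alone and with genes at or above 6.12, 196 with dim genes kept, 7 with 2 stretches, 78 by least squares and 72 with 1 common outer level, and the last gene was number 224 by least squares. The cause of these moves was not tested. Leaving out 1 array at a time gave member medians from -0.57 to -0.49 in EtOH and from -0.63 to -0.56 in TPA, first genes from 85 to 112, and a last gene at 207. It gave 34 to 36 members changed by TPA averaged over populations, 28 to 33 in U937_vec and 27 to 32 in U937_EVI1. It gave 0 to 1 member with a different response, 1 to 4 partners called in EtOH and 9 to 20 in TPA. With the replicate block, 35 members changed by TPA, 32 in each population alone, and 1 in the difference in response, the partner counts were 3 and 20, and no count moved by over 1.5 times. No called value changed sign in the alternatives run. Of the differences not called, 14, of 10 members, changed sign when 1 array was left out, and PLAGL2 went from 0.14 to -0.06 with the mean of its probe sets. The intensity trend was not run for the member medians, which it cannot alter.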
